A study of Mus musculus with 8 samples.

Results

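The genes described here encode 9 proteins that move chloride, potassium and sodium, or regulate or anchor those that do, in an epithelium that secretes fluid: Cftr, Ano1, Slc26a6, Slc12a2, Kcnn4, Kcnq1, Atp1b1, Fxyd2 and Slc9a3r1. They were chosen by name, as a list of channels, pumps and a scaffold known from cyst fluid secretion. No value entered the rule, but the list was drawn up with earlier results of these data known. All 9 were found among the 24063 genes of the deposited tables. None of the 9 changed past the test's threshold between doxycycline (DOX) and vehicle. With transcripts summed, Ano1, Atp1b1 and Kcnn4 had the highest levels, and with 1 transcript per gene Kcnn4 came below Slc9a3r1. Cftr and Slc26a6 had the lowest median levels by either count, though Kcnq1 exceeded Cftr in only 4 of 8 libraries. Cftr and Fxyd2 varied over 10-fold between libraries, whereas Slc9a3r1 varied by less than 2-fold. The width for Cftr came from its 2 highest libraries, 1 from each treatment.

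RNA was sequenced from tubuloids, which are cultures of mouse kidney fragments that form tubule-like structures in Matrigel. The labels put the kidneys at postnatal day 7 to day 10, and the study's methods give an earlier window. Every library, control or treated, carried the genotype Pkd2 fl/fl Pax8rtTA TetOCre mTmG, in which both copies of Pkd2 are floxed, the Pax8 promoter drives a doxycycline-dependent transactivator, the transactivator switches on Cre recombinase, and a membrane reporter turns from red to green after recombination. Because Pax8 is restricted to renal epithelium, Cre could, by the study's account, act in the epithelial cells of a culture and not in the undifferentiated structures beside them. From culture day 3 the tubuloids received DOX (n = 4 libraries) or dimethyl sulfoxide, the vehicle (DMSO, n = 4 libraries), for 3 days, and RNA was taken on day 7. The study counts 4 cultures per group, and the labels do not tie the libraries to animals, so the p-values below measure the spread between these cultures, which may share animals. Libraries are named by treatment and by the number in their titles, and these numbers mark no replicate shared between treatments.

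Secretion of fluid into a cyst follows chloride. The sodium-potassium pump keeps sodium low in the cell, and the basolateral cotransporter NKCC1 (Slc12a2) uses that gradient to bring chloride in. Potassium leaves again through channels such as KCa3.1 (Kcnn4) and KCNQ1, which keeps the cell negative inside, and chloride leaves through apical channels, CFTR opened by cyclic AMP and anoctamin-1 (Ano1) opened by calcium. Sodium and water follow into the lumen, and in polycystic kidneys this route, driven by cyclic AMP, is held to fill the cysts.

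Promoter sequences are shown for Cftr, Slc26a6 and Atp1b1, because the first pair peaked in DMSO 20 and DOX 19 and the last had its lowest values there, as described below. Each runs 5′ to 3′ on the gene's strand, from 250 bases before to 50 bases after the RefSeq start, on GRCm38.p6. Capitals mark matches on either strand to GGGCGG (the GC box) or CCAAT, and adjoining GC boxes in Cftr overlap. The windows are chr6:18170437-18170736 (plus strand) for Cftr, chr9:108853793-108854092 (plus strand) for Slc26a6 and chr1:164458306-164458605 (minus strand) for Atp1b1.
Cftr: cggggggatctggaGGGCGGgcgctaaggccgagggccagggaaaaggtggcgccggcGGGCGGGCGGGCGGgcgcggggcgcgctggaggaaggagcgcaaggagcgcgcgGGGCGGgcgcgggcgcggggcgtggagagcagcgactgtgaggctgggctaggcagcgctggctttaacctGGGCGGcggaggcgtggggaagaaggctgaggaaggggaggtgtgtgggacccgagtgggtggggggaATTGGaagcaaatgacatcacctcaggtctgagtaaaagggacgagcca
Slc26a6: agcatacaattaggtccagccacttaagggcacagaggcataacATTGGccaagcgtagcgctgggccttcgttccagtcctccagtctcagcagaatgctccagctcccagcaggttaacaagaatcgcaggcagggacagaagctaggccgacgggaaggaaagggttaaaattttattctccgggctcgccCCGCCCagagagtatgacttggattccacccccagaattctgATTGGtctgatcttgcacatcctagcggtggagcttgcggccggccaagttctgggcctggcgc
Atp1b1: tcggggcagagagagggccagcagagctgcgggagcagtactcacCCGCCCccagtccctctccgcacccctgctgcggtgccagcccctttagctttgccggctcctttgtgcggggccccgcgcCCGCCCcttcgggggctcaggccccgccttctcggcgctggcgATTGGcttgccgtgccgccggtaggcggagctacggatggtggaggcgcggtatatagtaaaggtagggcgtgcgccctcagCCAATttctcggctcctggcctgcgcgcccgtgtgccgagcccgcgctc

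RefSeq promoter windows were at hand for 6 of the 9 genes; Fxyd2, Kcnq1 and Slc12a2 had none. The Cftr window held 6 GC boxes and 1 CCAAT, that of Slc26a6 held 1 and 2, and that of Atp1b1 held 2 and 2. Among 32851 windows of the genome, 35.7% held a GC box and 37.4% a CCAAT. GC content was 71.3% for Cftr, 56% for Slc26a6 and 71% for Atp1b1, against a median of 52.7%. Neither TATAAA, found in 13.6% of all windows, nor the cyclic AMP response element TGACGTCA, found in 1.79%, matched on either strand in any of the 6 windows. A match describes letters only.

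The libraries held 63922677 to 102716313 counts summed over transcripts. Genes with any count numbered 13243 in DMSO 20 and 13599 in DOX 19, against 17054 to 17903 in the other 6 libraries, so each fold change below was also computed without these 2. The epithelial markers (8 genes, 6 of them at 1 transcript per 1000000, TPM, or more in every library) summed to 455 to 1887 TPM in DMSO and 583 to 1317 TPM in DOX libraries. DMSO 15 had the lowest epithelial sum, 455 TPM, and the highest stromal sum, 2674 TPM, against 273 to 969 TPM of the stromal markers in the other 7. An epithelial marker score, the mean log2(normalised count + 1) of the same 8 genes, served as a covariate in 1 alternative. Unlike the TPM sum it was lowest in DMSO 20 (10.73), with DMSO 15 next (11.17) and DMSO 3 highest (13.19). In DMSO 20 Esrp1 was at 0 TPM, while every other marker of the 8 had more TPM there than in DMSO 15. Fits with this score are therefore not an adjustment for the epithelial TPM sum. Collecting duct markers summed to 10.7 to 173 TPM in DMSO and 20.6 to 61.4 TPM in DOX libraries, but Aqp2, the water channel that defines principal cells, was at 0 in 7 libraries and at 0.0287 TPM in DOX 9. In bulk RNA, fewer cells of a type and less RNA per cell cannot be told apart. Pkd2, the targeted gene, had normalised counts of 6128, 4813, 6039 and 7538 in DMSO 3, 5, 15 and 20, and of 4136, 5072, 5952 and 4624 in DOX 9, 12, 19 and 21. The groups overlapped (log2 fold change -0.31, SE 0.215; DESeq2 adjusted p = 0.999), and counts over whole transcripts do not separate the floxed exons. By western blot, the study reported significantly less of the Pkd2 protein in DOX-treated tubuloids, where some was still detectable.

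Levels were compared between genes in TPM, which is scaled by transcript length and summed over the transcripts of a gene. The medians over 8 libraries were 118 TPM for Ano1, 75.0 TPM for Atp1b1, 67.9 TPM for Kcnn4 and 38.5 TPM for Slc9a3r1. They were 27.9 TPM for Fxyd2, 17.7 TPM for Slc12a2, 6.76 TPM for Kcnq1, 2.89 TPM for Cftr and 2.80 TPM for Slc26a6. Ano1 thus stood above 93.6% of all genes by its median and Slc26a6 above 52.0%. Slc12a2 exceeded Kcnq1 in 8 of 8 libraries, whereas Atp1b1 exceeded Kcnn4 in 4, Kcnq1 exceeded Cftr in 4 and Cftr exceeded Slc26a6 in 5, so with transcripts summed the order within those 3 pairs was not held across libraries. The order of the leading genes depends on how transcripts are counted. Ano1 and Kcnn4 each have 2 transcripts whose counts differed by at most 3 and 14 reads, and Fxyd2 has 3 transcripts that differed by at most 33, so shared reads appear in each transcript and are summed more than once. With only the transcript of the highest mean count, the medians fell to 58.7 TPM for Ano1, 33.2 TPM for Kcnn4 and 9.57 TPM for Fxyd2, Ano1 exceeded Atp1b1 in 2 of 8 libraries instead of 7, Atp1b1 exceeded Kcnn4 in 7 instead of 4, Kcnn4 exceeded Slc9a3r1 in 2 instead of 7, and Fxyd2 exceeded Slc12a2 in 1 instead of 6.

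**Figure D1:**
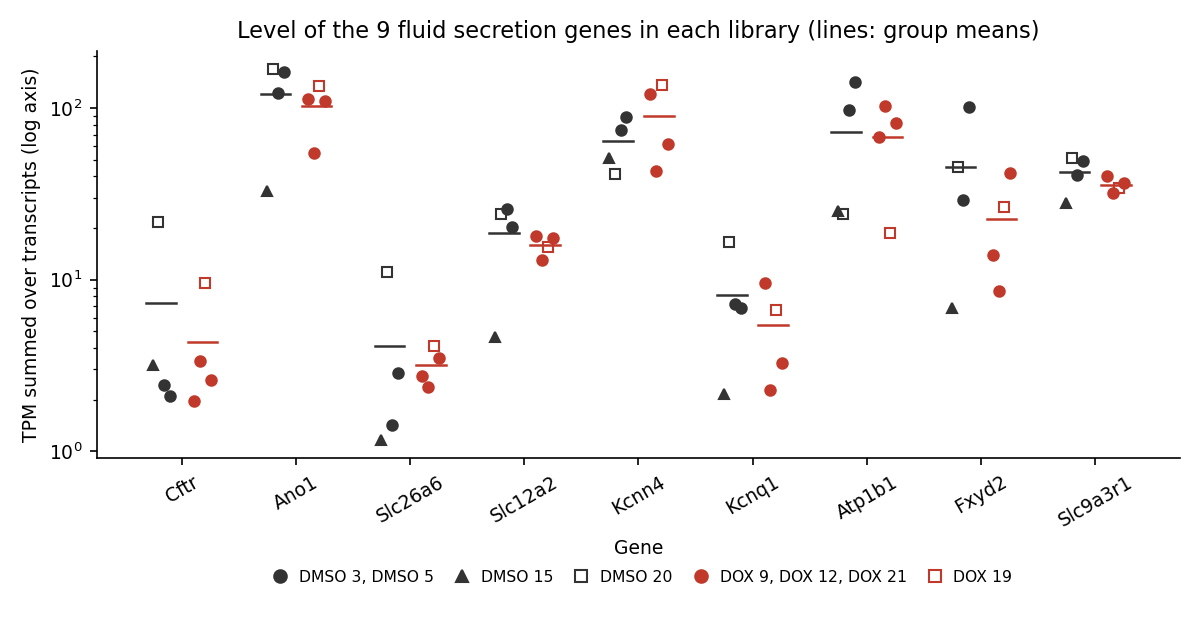
TPM of each of the 9 genes (log axis) in the 4 DMSO libraries (black) and the 4 DOX libraries (red), with lines at the group means; open squares mark DMSO 20 and DOX 19, and the triangle marks DMSO 15. DMSO and DOX points overlap for every gene, and the open black square of DMSO 20 is the highest Cftr and Slc26a6 point, at 21.7 and 11.1 TPM.

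Calls required a DESeq2 adjusted p no higher than 0.05 together with a 1.5-fold or larger difference. This rule called 0 of the 9 genes, against 0.147% of all genes tested (25 of 17011). None of the 8 with a p had an unadjusted p under 0.05, against 4.67% of all genes. The edgeR quasi-likelihood test and limma-voom also called 0 of 9, with 0 at an unadjusted p under 0.05. Over all 15562 genes edgeR called 0 (0%) and placed 3.06% at such a p, and limma-voom placed 3.07% there. The fold change was below 0 on the log2 scale for 8 genes and above 0 for 1, Kcnn4, with a median of -0.31. Over all 19634 genes with counts, 10889 lay below 0 and the median was -0.08. Without DMSO 20 and DOX 19 the medians were -0.16 for the 9 genes and -0.07 for all genes. The normalised counts of the groups overlapped for all 9 genes, while for 2.45% of all genes they did not. Without DMSO 20 and DOX 19, DESeq2 again called 0 of 9, against 0.296% of all genes, with 0 at an unadjusted p under 0.05, against 6.11% of all genes. Fold changes below are DOX over DMSO with a 95% Wald interval from DESeq2, and a wide interval leaves room for changes well past 1.5-fold.

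The first 3 proteins carry chloride at the apical membrane. CFTR is the cyclic AMP-gated apical channel. Cftr (chromosome 6, 18170687 to 18322770, plus strand, mm10) had normalised counts of 718, 490, 956 and 5328 in DMSO 3, 5, 15 and 20. In DOX 9, 12, 19 and 21 it had 514, 564, 2582 and 877. DMSO 20 and DOX 19 stood highest in their groups, and the other 6 libraries lay within 490 to 956 whatever the treatment. Mean ± SD was 1873 ± 2311 with DMSO and 1134 ± 979 with DOX (n = 4 each, as for every mean below). This gave a log2 fold change of -0.72, or a fold of 0.605 (95% interval 0.190 to 1.93). DESeq2 gave no p for it, because 1 library weighed too heavily on the fit by Cook's distance; with that filter off the adjusted p was 0.999, and edgeR also gave an adjusted p of 0.999. The direction rested on DMSO 20: without that library the log2 fold change was 0.64, and without both high libraries it was -0.14 (fold 0.910, interval 0.528 to 1.57). With the epithelial marker score in the model it was -0.06. An antisense transcript, Gm15592, covers 129 of the exon bases of Cftr (1.66%) on the other strand.

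Anoctamin-1 is the calcium-activated chloride channel. Ano1 (chromosome 7, 144588549 to 144752026, minus strand) had normalised counts of 26382, 27775, 7176 and 30223 in DMSO 3, 5, 15 and 20, and of 21710, 17588, 26447 and 10521 in DOX 9, 12, 19 and 21. DMSO 3, 5 and 20 lay close together and DMSO 15 lay below all 7 others. The means of 22889 ± 10595 in DMSO and 19066 ± 6750 in DOX libraries gave a fold of 0.833 (interval 0.425 to 1.63; log2 -0.26, SE 0.496; DESeq2 adjusted p = 0.999). Without DMSO 15, the library with the lowest epithelial and highest stromal sums, the log2 fold change was -0.56 (DESeq2 adjusted p = 0.684). That was the low end over omissions of 1 library, and the high end was -0.06, without DOX 21. With the epithelial marker score as a covariate the log2 fold change was -0.31. That score was lowest in DMSO 20, where Ano1 was highest, so this fit does not address the low value of DMSO 15. The part of cell makeup in that value was not tested.

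Slc26a6 encodes an apical exchanger of chloride for bicarbonate and oxalate. The gene (chromosome 9, 108854043 to 108913049, plus strand) had normalised counts of 181, 288, 151 and 1179 in DMSO 3, 5, 15 and 20. It had 313, 328, 477 and 269 in DOX 9, 12, 19 and 21. As for Cftr, the highest library was DMSO 20 and the next was DOX 19. The means were 450 ± 490 and 347 ± 90.5, a fold of 0.771 (interval 0.297 to 2.00; log2 -0.38, SE 0.702; DESeq2 adjusted p = 0.999). The direction turned without DMSO 20 (log2 0.74) and without both libraries (log2 0.58, SE 0.359, adjusted p = 0.865; fold 1.49, interval 0.915 to 2.43).

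**Figure D2:**
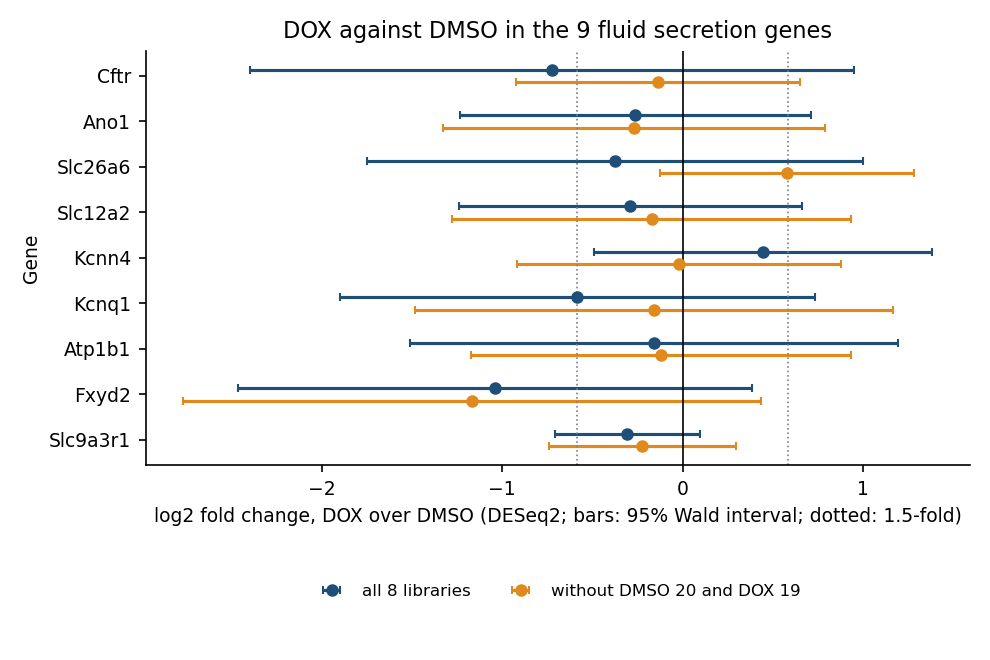
Log2 fold change of DOX over DMSO (x axis) for the 9 genes, with points for the DESeq2 estimate, bars for its 95% Wald interval and dotted lines at 1.5-fold; blue uses all 8 libraries and orange leaves out DMSO 20 and DOX 19. Every interval crosses 0, Slc9a3r1 has the narrowest with all libraries (fold 0.613 to 1.07), and Slc26a6 moves from -0.38 to 0.58.

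Chloride enters through NKCC1. Slc12a2 (chromosome 18, 57878512 to 57946821, plus strand) had normalised counts of 7874, 4879, 1433 and 6144 in DMSO 3, 5, 15 and 20, and of 4879, 3917, 4305 and 3527 in DOX 9, 12, 19 and 21. The 4 DOX libraries were close to each other and lay inside the DMSO range, which DMSO 15 and DMSO 3 spanned. The means were 5082 ± 2725 and 4157 ± 577, a fold of 0.818 (interval 0.423 to 1.58; log2 -0.29, SE 0.485; DESeq2 adjusted p = 0.999). Without DMSO 3 the log2 fold change was 0.0030. Without DMSO 15 it was -0.60 with an unadjusted p of 0.0161 from DESeq2 and an adjusted p of 0.385. The same omission gave unadjusted p of 0.0248 for Fxyd2 and 0.0155 for Slc9a3r1, with adjusted p of 0.447 and 0.377. In that fit 6.59% of all genes had an unadjusted p under 0.05.

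Both potassium channels set the voltage that drives chloride out. KCa3.1 opens with intracellular calcium. Kcnn4 (chromosome 7, 24369826 to 24385212, plus strand) had normalised counts of 6958, 6595, 4842 and 3222 in DMSO 3, 5, 15 and 20, and of 10010, 4238, 11635 and 3562 in DOX 9, 12, 19 and 21. DOX 9 and DOX 19 lay above every DMSO library, and DOX 12 and DOX 21 lay among the lowest. The means were 5404 ± 1724 and 7361 ± 4061, a fold of 1.36 (interval 0.712 to 2.61; log2 0.45, SE 0.478; DESeq2 adjusted p = 0.999). Without DMSO 20, its lowest library, and DOX 19, its highest, the log2 fold change was -0.02 (fold 0.987, interval 0.530 to 1.84).

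KCNQ1 is the pore of a voltage-gated potassium channel that joins with small KCNE subunits. Kcnq1 (chromosome 7, 143106877 to 143427050, plus strand) had normalised counts of 1033, 768, 311 and 1949 in DMSO 3, 5, 15 and 20. It had 1215, 344, 864 and 287 in DOX 9, 12, 19 and 21. DMSO 20 was again highest, and DMSO 15 lay with DOX 12 and DOX 21 at the low end. The means were 1015 ± 690 and 677 ± 443, a fold of 0.667 (interval 0.268 to 1.66; log2 -0.58, SE 0.671; DESeq2 adjusted p = 0.999), and without DMSO 20 and DOX 19 the log2 fold change was -0.16. Leaving out 1 library gave -1.03 (without DOX 9) to -0.05 (without DMSO 20). The antisense transcript Kcnq1ot1 covers 121 of its exon bases on the other strand, 2.96% of them. Whether counting used strand is not given in the sources used here, so reads in this stretch, as in the overlaps of Cftr and Atp1b1, cannot be told apart.

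The sodium-potassium pump powers the whole route. Its β1 subunit, which carries the catalytic subunit to the membrane, is encoded by Atp1b1 (chromosome 1, 164437099 to 164458355, minus strand). Normalised counts were 11937, 13679, 3104 and 2446 in DMSO 3, 5, 15 and 20, and 7326, 7368, 2064 and 11117 in DOX 9, 12, 19 and 21. The 3 low libraries, DMSO 15, DMSO 20 and DOX 19, came from both treatments. The means were 7791 ± 5842 and 6969 ± 3722, a fold of 0.894 (interval 0.350 to 2.28; log2 -0.16, SE 0.690; DESeq2 adjusted p = 0.999). The sign was not stable: it turned without DMSO 3 (log2 0.12), DMSO 5 (0.26) or DOX 19 (0.15), and with the epithelial marker score in the model (0.22). Atp1b1 shares 575 exon bases, 18.7% of its total, with Nme7 on the other strand, and Nme7 had normalised counts of 2079 to 6582, lowest in DMSO 20 and highest in DMSO 3.

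FXYD2, the γ subunit, lowers the pump's affinity for its ions. Fxyd2 (chromosome 9, 45399709 to 45410278, plus strand) had normalised counts of 877, 2398, 208 and 1137 in DMSO 3, 5, 15 and 20, and of 370, 923, 728 and 228 in DOX 9, 12, 19 and 21. DMSO 5 was the highest library and DMSO 15 the lowest, so the DOX values lay wholly within the DMSO range. The means were 1155 ± 916 and 562 ± 320. Its difference, -1.04 on the log2 scale (SE 0.726; DESeq2 adjusted p = 0.999, unadjusted p = 0.153), was the farthest from 0 among the 9 genes, a fold of 0.487 with an interval of 0.182 to 1.31. Without DMSO 5 it was -0.40, and without DMSO 20 and DOX 19 it was -1.17 (SE 0.817).

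NHERF1 is a scaffold whose PDZ domains hold CFTR and other transporters at the apical membrane. Its gene Slc9a3r1 (chromosome 11, 115163341 to 115181178, plus strand) had normalised counts of 3677, 3524, 2566 and 3866 in DMSO 3, 5, 15 and 20. It had 3238, 2433, 2803 and 2548 in DOX 9, 12, 19 and 21. DMSO 3, 5 and 20 lay above all DOX libraries, and DMSO 15 lay among the DOX values. The means were 3408 ± 578 and 2755 ± 357, a fold of 0.808 (interval 0.613 to 1.07; log2 -0.31, SE 0.204; DESeq2 adjusted p = 0.999, unadjusted p = 0.133).

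The genes differed in how far they varied between libraries. The SD of the log2 normalised count over 8 libraries was 1.23 for Cftr, 1.21 for Fxyd2, 1.09 for Atp1b1 and 1.02 for Kcnq1. It was 0.908 for Slc26a6, 0.751 for Ano1, 0.727 for Slc12a2, 0.678 for Kcnn4 and 0.265 for Slc9a3r1, against a median of 0.534 over 13248 genes with a mean of at least 100 normalised counts. Fxyd2 differed 11.5-fold and Cftr 10.9-fold between the highest and lowest library, Slc9a3r1 1.59-fold. Outside DMSO 20 and DOX 19, Cftr lay within 490 to 956 normalised counts. DMSO 20 was the highest library for 5 of the 9 genes (Cftr, Ano1, Slc26a6, Kcnq1 and Slc9a3r1) and the lowest for Kcnn4. DMSO 15 was the lowest for 4 (Ano1, Slc26a6, Slc12a2 and Fxyd2).

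**Figure D3:**
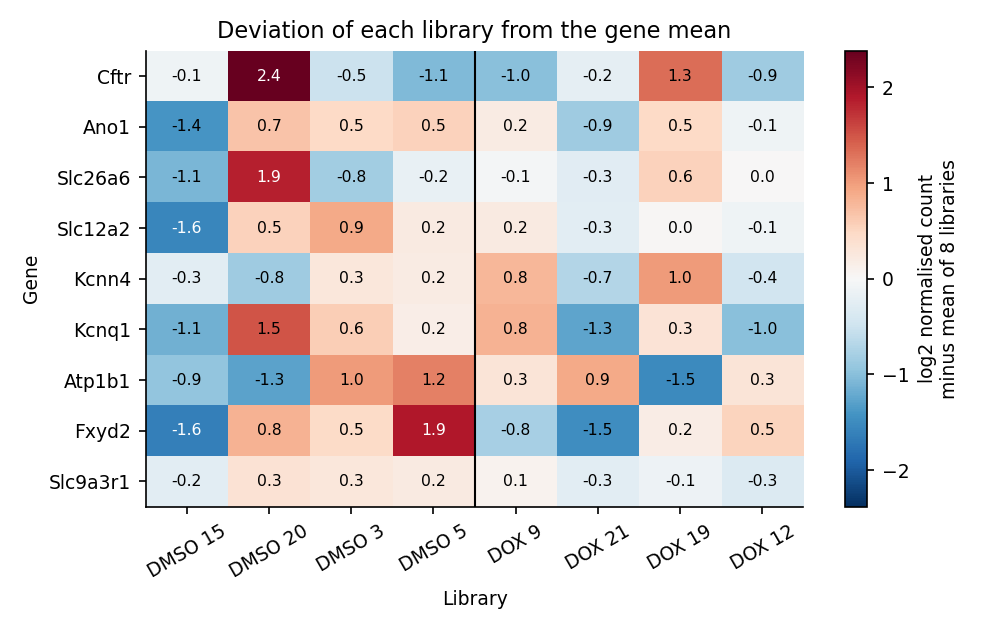
Log2 normalised count of each gene minus its mean over the 8 libraries, by library, with red above and blue below the mean; the black line parts DMSO from DOX. The Cftr and Slc26a6 rows are reddest in DMSO 20 and DOX 19, where Atp1b1 is blue, and the Slc9a3r1 row is nearly white (SD 0.265).

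How closely 2 genes followed each other was measured as the SD, over the 8 libraries, of the log2 ratio of their normalised counts, where 0 is a constant ratio. Within the list the chloride channel Ano1 and the chloride importer Slc12a2 had the most constant ratio (0.357), and Cftr and Atp1b1 the least constant (2.20). Among 13247 other genes, the nearest to Cftr were Adamts3 (0.351), D130017N08Rik (0.353) and Fst (0.374). The nearest to Ano1 was Jag1 (0.203), to Slc26a6 Zfp566 (0.275), to Slc12a2 Ucp2 (0.274) and to Kcnn4 Tprn (0.226). The nearest to Kcnq1 was Rab38 (0.302), to Atp1b1 Ubxn2b (0.362), to Fxyd2 Sh3gl2 (0.395) and to Slc9a3r1 Chmp2b (0.106). The points share library and depth, so these values are descriptions of 8 libraries.

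Ratios within a library compare genes of the same step without the scaling between libraries. The counts are summed over transcripts and not scaled by length. Fxyd2 enters with 3 transcripts and Ano1 with 2, against 1 each for Atp1b1 and Cftr, so the level of each ratio is offset. The log2 ratio of Fxyd2 to Atp1b1, γ to β1 subunit, was -3.77, -2.51, -3.90 and -1.10 in DMSO 3, 5, 15 and 20, and -4.31, -3.00, -1.50 and -5.61 in DOX 9, 12, 19 and 21. It was highest in DMSO 20 and DOX 19, where Atp1b1 was low, and the groups overlapped. The difference of DOX minus DMSO was -0.78 (exact two-sided permutation p = 0.514, adjusted p = 0.743 over 4 planned ratios; the smallest p that 4 against 4 libraries allow is 0.0286). The log2 ratio of Cftr to Ano1, the cyclic AMP-gated to the calcium-gated channel, was -5.20, -5.82, -2.91 and -2.50 in DMSO 3, 5, 15 and 20, and -5.40, -4.96, -3.36 and -3.58 in DOX 9, 12, 19 and 21. Cftr had the lower count in every library, and the groups overlapped. The difference of DOX minus DMSO was -0.22 (exact two-sided permutation p = 0.743, adjusted p = 0.743). Its direction turned in 3 of 8 omissions of 1 library. Without DMSO 20 and DOX 19 this difference was -0.0061, and that of Fxyd2 to Atp1b1 was -0.91.

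**Figure D4:**
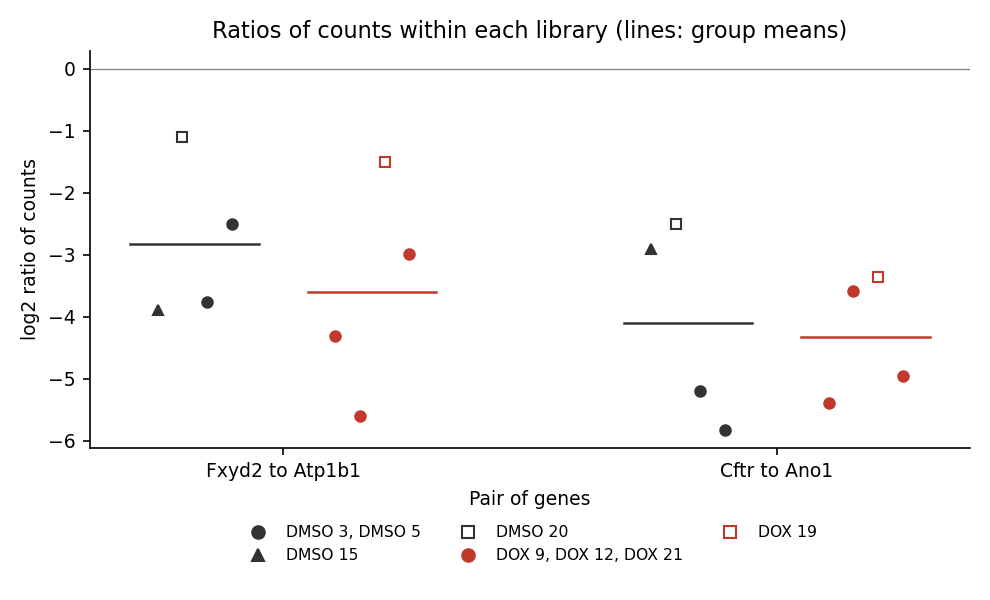
Log2 ratio of counts summed over transcripts (y axis) for 2 pairs of genes in each library, with lines at the means of DMSO (black) and DOX (red); open squares mark DMSO 20 and DOX 19, and the triangle marks DMSO 15. Groups overlap in both pairs, and the open squares are the highest points of their groups, at -1.10 and -1.50 for Fxyd2 to Atp1b1 and at -2.50 and -3.36 for Cftr to Ano1.

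Other genes of the same machinery were listed by family: 64 genes, of which 60 had counts and 29 had at least 1 TPM in every library. DESeq2 called 0 of them, against 0.147% of all genes, and edgeR 0, against 0%. Before adjustment, 1 of 59 genes had a p below 0.05 by DESeq2 and 1 of 52 by edgeR, against 4.67% and 3.06% of all genes. On the log2 scale 33 fold changes lay above 0 and 27 below, against 8745 and 10889 over all genes. The median log2 fold change was 0.01 over the 60 genes. It was -0.06 over 12 other chloride channels, -0.09 over 8 SLC12 cotransporters, 0.38 over 10 potassium channels with counts and -0.02 over 12 sodium pump genes. Over 8 SLC26 exchangers with counts it was 0.55, and over 10 scaffolds and kinases 0.12. Without DMSO 20 and DOX 19 the median over the 60 genes was -0.01, with -0.15 for the chloride channels, -0.25 for the SLC12 cotransporters, 0.28 for the potassium channels, 0.19 for the SLC26 exchangers and 0.04 for the scaffolds and kinases. DESeq2 then called 0 of the 64, against 0.296% of all genes. An unadjusted p under 0.05 held for 5 of 59, against 6.11% of all genes. Besides Slc26a11 these were Kcne4 and Slc26a7, with fold changes above 0, and Kcne3 and Pdzd3, below 0, with adjusted p of 0.281 to 0.689; they were named after their values were seen.

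With all 8 libraries the one gene below that p was Slc26a11, a sulfate and anion transporter of the SLC26 family. Its normalised counts were 449, 697, 475 and 197 in DMSO 3, 5, 15 and 20, and 819, 964, 761 and 1200 in DOX 9, 12, 19 and 21. Every DOX library lay above every DMSO library, the only such case in normalised counts among the 64 genes, while 1.48% of all genes had this order. In TPM the groups overlapped, with DOX 19 at 6.61 and DMSO 5 at 6.99. The log2 fold change was 1.04 (SE 0.416; DESeq2 unadjusted p = 0.0123, adjusted p = 0.683; edgeR unadjusted p = 0.0489, adjusted p = 0.999), so it did not pass the threshold. Across 19 alternatives the log2 fold change ran from 0.79 to 1.33, and the smallest adjusted p was 0.248, without DMSO 20 and DOX 19.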

How the data were processed

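RNA was sequenced in 8 tubuloid libraries, 4 with DMSO and 4 with DOX, grouped by their labels. The authors made poly-A selected SMART-Seq v4 libraries. The submitters' processing notes name STAR, featureCounts and DESeq2 and the builds mm10 and GRCm38; versions are not given in the sources used here. The deposited count is the number of reads per RefSeq transcript. FPKM, which the authors derived from it by transcript length and library total, was also deposited and not used here. The deposited TPM is rescaled to 1000000 per library. Counts and TPM were summed by gene symbol (24063 genes), so reads shared by transcripts of a gene count more than once; TPM served only for levels.

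DOX was compared with DMSO over all genes by the Wald test of DESeq2 1.42.0 (R 4.3.3) with median-of-ratios size factors, which also give the normalised counts, no covariate, independent filtering at alpha 0.1, unshrunken fold changes and Benjamini-Hochberg adjustment. edgeR 4.0.16 (quasi-likelihood) and limma 3.58.1 (voom) were alternatives, as were minimum counts, TMM size factors, DESeq2 without its Cook's distance or independent filter, 1 transcript per gene, another threshold, each library left out, and DMSO 20 and DOX 19 left out. Log2 values and ratios used a pseudocount of 0.5. Named were the 9 genes, Pkd2, up to 3 genes of most constant ratio to each of the 9 (of genes with a mean of at least 100 normalised counts, and for members with at least 10 counts in every library), and in each partner list the gene highest in mean TPM and any with an unadjusted DESeq2 p under 0.05. Adjustment covered all 4 planned ratios, of which 2 are not reported here. The 9 genes and the lists of partners and markers were chosen with earlier results of these data known. Positions and promoters are from RefSeq on GRCm38.p6, the assembly of mm10. Exact permutation tests used all 70 assignments of libraries.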

Additional observations from a re-analysis of the deposited data

Results flagged for a closer look

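Among 22 groups of 4 values (the 9 genes and 2 ratios in each treatment), 1 held a library far from the other 3 by Dixon's test, where about 1 in 20 groups, 1.1 here, would do so by chance. Ano1 in DMSO 15 had a log2 normalised count of 12.81, against 14.69, 14.76 and 14.88 in the other DMSO libraries, a gap of 0.905 of the group's range.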

How the results depend on the processing

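The 9 fold changes under 19 alternatives gave 171 values, of which 159 kept their direction, 12 reversed. Of these, 161 had an adjusted p, none of them a call, the smallest being 0.377; the rest, all of Cftr or Slc26a6, had none by Cook's distance. Without DMSO 20 and DOX 19 together, the log2 fold changes of Slc26a6 and Kcnn4 reversed to 0.58 and -0.019 (0.55 and -0.042 with edgeR, an alternative chosen after seeing the data). limma-voom reversed Slc26a6 to 0.23, and the epithelial marker score as a covariate, also chosen after seeing the data, reversed Atp1b1 to 0.22. Leaving out 1 library at a time gave log2 fold changes of -1.51 to 0.64 for Cftr, -0.66 to 0.74 for Slc26a6, -0.60 to 0.0030 for Slc12a2 and -0.48 to 0.26 for Atp1b1, with Atp1b1 at 0.12 without DMSO 3 and 0.15 without DOX 19. It gave differences in log2 ratio of -0.79 to 0.32 for Cftr to Ano1 and -1.48 to -0.11 for Fxyd2 to Atp1b1. The causes were not tested. With 1 transcript per gene, mean levels moved to 56.2 TPM for Ano1 and 37.8 TPM for Kcnn4, and that of Fxyd2 from 34.1 to 11.8 TPM. TMM size factors shifted single genes by a median of 0.0064 on the log2 scale.

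Calls over all genes numbered 25, against 0 with edgeR, 0 with limma-voom, 16 with at least 10 counts in every library, 48 with the Cook's distance filter off, 51 without DMSO 20 and DOX 19, 0 with edgeR without them, 55 with the epithelial covariate (43 higher, 12 lower, against 14 and 11), 40 at an adjusted p threshold of 0.1, and 14 to 75 leaving out 1 library (0 of the 9 genes in each). Among the 64 partner genes 0 to 1 were called when 1 library was left out. The 1 call, lower with DOX, came without DOX 9, where 27 were called over all genes. No paired analysis was possible because the library numbers in the titles are not shared between the groups. With 4 libraries a group, the intervals of all 9 genes reach past a 1.5-fold change.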

Other observations

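Some other genes of the same families had levels within or above the range of the 9, given here as TPM summed over transcripts. Fxyd5, another regulator of the sodium pump, averaged 235 TPM over 8 libraries, and Msn, encoding the actin linker moesin, 260 TPM. Slc12a4, a potassium-chloride cotransporter, averaged 114 TPM and Ano6, a calcium-activated scramblase and channel, 97.2 TPM. With 1 transcript per gene the means were 54.3 TPM for Fxyd5, 260 TPM for Msn, 38.1 TPM for Slc12a4 and 48.4 TPM for Ano6. Slc26a2, a sulfate transporter gene, had the highest mean of the other SLC26 exchangers over all 8 libraries, 7.36 TPM. It averaged 6.72 TPM in DMSO and 7.99 TPM in DOX libraries, against 4.03 and 8.74 TPM for Slc26a11.

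Kcnma1, the large-conductance calcium-activated potassium channel, averaged 40.0 TPM summed over transcripts (1.76 TPM with 1 transcript) but stood at 0.0499 TPM in DOX 19, with 11 normalised counts, against 92.5 TPM in DOX 12. The other 6 libraries lay between 11.6 and 71.3 TPM. Its log2 fold change over 19 alternatives ran from -2.36 to -0.27, with a smallest DESeq2, edgeR or limma adjusted p of 0.908.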
